A study of Mus musculus with 12 samples.

Results

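Transcripts of 8 genes that shape N-glycans between the endoplasmic reticulum and the Golgi were followed in MIN6 cells, an insulin-secreting mouse tumour line used to study pancreatic β-cells. The genes are the mannosidase genes Man1a, Man1a2, Man1b1, Man1c1, Man2a1 and Man2a2 and the GlcNAc transferase genes Mgat1 and Mgat2. They were found by their names in the deposited gene table, 8 rows of 49315, and each name had 1 row. The group was chosen by the level of Man1a, which stood far higher in starved than in control cells in these same libraries; no measured threshold was applied to the other 7. That contrast is therefore given for all 8 genes as a description without p-values, and so is every contrast of Man1a that uses the starved or the control libraries.

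Bulk RNA was sequenced in 12 libraries, 3 in each of 4 groups of wild-type (WT) MIN6 cells. Cells with amino acids re-added together with "Rap" for 3 h, an agent that the labels do not spell out, are called Rap cells. The re-added group received amino acids alone for 3 h, the starved group had gone 16 h with none, and the labels give the control group no treatment. The labels do not say how long the re-added and Rap cells had been without amino acids, what dose of Rap was used, or whether replicates were grown separately. Each p-value below rests on the spread within groups of 3 libraries, pooled over the 4 groups. That spread could therefore be technical only. The series title names mTORC1, the kinase complex that senses amino acids.

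Newly made secretory and membrane proteins receive a large mannose-rich glycan in the endoplasmic reticulum, and most of its mannose is removed again on the way through the Golgi. The class I mannosidases act first: MAN1B1 takes off a mannose that marks the age of a glycoprotein in the quality control of the early secretory pathway, and the Golgi enzymes MAN1A1 (gene Man1a), MAN1A2 and MAN1C1 remove the remaining mannoses of the same linkage. MGAT1 then adds the first GlcNAc, which opens the route to hybrid and complex glycans, the class II mannosidases MAN2A1 and MAN2A2 trim the other arm, and MGAT2 adds a GlcNAc to that arm, the step that commits a glycan to the complex type. In mouse β-cells a complex glycan built further by MGAT4A keeps the glucose transporter GLUT2 at the cell surface.

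The libraries held 18555958 to 25631056 counted reads, and each of the 8 genes had between 285 and 13942 reads in every library, so all 8 passed the filter on low counts, which 16844 genes passed. The 10 β-cell markers were all detected in every library and summed to between 42290 and 70290 CPM (reads of a gene or list scaled to a common library total). Markers of other cells did not follow the groups alone. The 28 markers of fibroblasts, leukocytes and endothelium summed to 117 to 122 CPM in Rap libraries, 118 to 666 CPM in re-added libraries, 126 to 1605 CPM in starved libraries and 1646 to 1958 CPM in control libraries. Re-added replicate 1, with 666 CPM, and starved replicates 1 and 3, with 1605 and 772 CPM, stood above the other libraries of their groups, and 0 to 2 of the 28 markers were at 0 in a library, among them Lum and Emcn. The 3 lung epithelium markers summed to 29.9 to 34.8 CPM in Rap, 38.1 to 532 CPM in re-added, 63.3 to 1095 CPM in starved and 1114 to 1330 CPM in control libraries. Of the acinar markers, 2 to 4 of 5 were at 0 in each library. The fibroblast, leukocyte, endothelium and lung lists were high or low together. They summed to 253, 1161, 232 and 1114 CPM in control replicate 1. In starved replicate 1 they summed to 253, 1127, 225 and 1095 CPM, and in starved replicate 2 to 16.2, 75.7, 33.8 and 63.3 CPM. In these bulk samples fewer cells of a type, less RNA per cell and RNA or reads from another source cannot be told apart. The source of the marker reads was not tested.

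Man1a was the member whose level moved furthest (chromosome 10, 53904788 to 54075796, minus strand, GRCm38.p6, the build of all coordinates here, which span the first to the last annotated exon base). It had 545, 581.5 and 554 CPM in Rap libraries, 367, 365 and 379.5 CPM in re-added libraries, 524, 643.5 and 596 CPM in starved libraries, and 108, 96.3 and 120.2 CPM in control libraries, scaled by TMM (a factor that balances the libraries' composition). The control libraries were lowest, the re-added libraries came next, and the Rap and starved libraries overlapped at the top. As a description, the starved level was 5.43 times the control level (log2 difference 2.44, SE 0.10), and the re-added level was lower than the starved level by a log2 difference of -0.67 (SE 0.09).

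The contrast between Rap and re-added cells compares none of the libraries in which Man1a was noticed, although the spread was estimated from all 12. There Man1a was 1.51-fold higher in Rap cells, at 560.1 ± 19.1 CPM against 370.5 ± 7.82 CPM in re-added cells (SD, n = 3 each). The log2 difference was 0.60 (SE 0.09, 95% interval 0.40 to 0.80), with an adjusted p of 0.00208 in the quasi-likelihood test of edgeR. All 3 Rap libraries lay above all 3 re-added libraries. The Rap level differed from the starved level by -0.07 on the log2 scale, with an interval of -0.27 to 0.13. The Rap libraries, with other-cell markers at 117 to 122 CPM, were set against re-added libraries of which replicates 2 and 3 had 122 and 118 CPM, and without re-added replicate 1 the difference for Man1a was 0.57. Among starved libraries Man1a was highest in replicate 2, which had the lowest marker sum, and lowest in replicate 1, which had the highest.

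**Figure D1:**
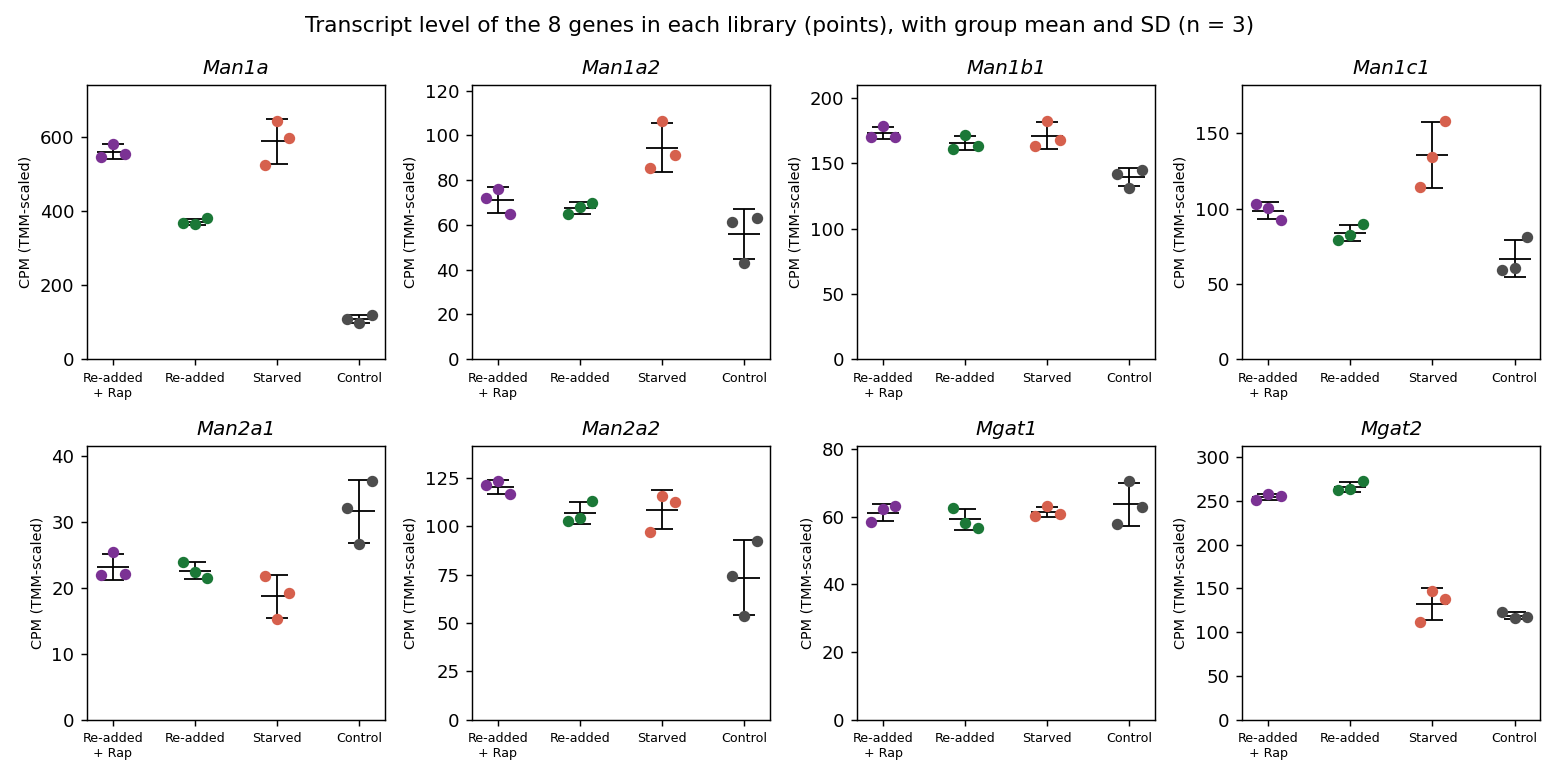
Each panel shows 1 gene, with TMM-scaled CPM on the vertical axis and the groups from left to right as Rap, re-added, starved and control; points are libraries, horizontal bars the mean and whiskers the SD (n = 3). Man1a lies between 96.3 and 120.2 CPM in control libraries and between 524 and 643.5 CPM in starved libraries, Mgat2 lies above 250 CPM in the Rap and re-added libraries, and Mgat1 stays between 56.7 and 70.4 CPM throughout.

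The other Golgi class I genes also stood highest in starved cells, with smaller differences. Man1c1 (chromosome 4, 134561690 to 134704290, minus strand) had 103.0, 100.3 and 92.2 CPM in Rap libraries, 79.2, 82.1 and 89.5 CPM in re-added libraries, 114, 134 and 158 CPM in starved libraries, and 59.0, 60.2 and 81.1 CPM in control libraries. The starved libraries did not overlap with any other group. Man1a2 (chromosome 3, 100562208 to 100685503, minus strand) had 72.2, 76.2 and 64.9 CPM in Rap libraries, 64.8, 68.0 and 69.8 CPM in re-added libraries, 85.5, 107 and 91.4 CPM in starved libraries, and 61.3, 43.1 and 63.1 CPM in control libraries. Its starved libraries were again the 3 highest, and control replicate 2 was the lowest. The starved level was 2.03 times the control level for Man1c1 (log2 difference 1.02, SE 0.14) and 1.69 times for Man1a2 (0.76, SE 0.13).

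Both fell when amino acids were given back. Man1c1 fell to 83.6 ± 5.33 CPM in re-added cells, against 136 ± 22.2 CPM in starved cells (log2 difference -0.70, SE 0.13, adjusted p = 0.00168 by edgeR). Man1a2 fell to 67.6 ± 2.53 CPM in re-added cells, against 94.5 ± 10.9 CPM in starved cells (log2 difference -0.48, SE 0.13, adjusted p = 0.0126 by edgeR). Neither passed the test between Rap and re-added cells, where the difference was 0.24 for Man1c1 (interval -0.06 to 0.53, adjusted p = 0.324 by edgeR) and 0.07 for Man1a2 (interval -0.21 to 0.36, adjusted p = 0.783 by edgeR). For Man1c1 this difference passed with only the 6 libraries compared (0.21). Whether the response to Rap differed between Man1a and these genes was not tested.

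Both genes were lower in Rap than in starved cells. Man1c1 was lower in Rap than in starved cells by -0.46 on the log2 scale (SE 0.13, adjusted p = 0.0174 by edgeR) and Man1a2 by -0.41 (SE 0.13, adjusted p = 0.0256 by edgeR). These calls were fragile: that of Man1c1 was lost without starved replicate 3 (-0.33), without Rap replicate 3 (-0.41) and in libraries of like marker level (-0.45), and that of Man1a2 without starved replicate 2 (-0.36), Rap replicate 1 (-0.42) or Rap replicate 3 (-0.35). Against control cells, Man1c1 was higher in Rap cells (0.56, SE 0.14, adjusted p = 0.00494 by edgeR), a call lost with the other-cell marker sum as a covariate (0.43), and missed the threshold in re-added cells (0.33, SE 0.14, adjusted p = 0.0644 by edgeR), where it passed without control replicate 3 (0.49) or starved replicate 3 (0.31), on the TPM values (0.43) and with the replicate block (0.33). Man1a2 against control cells gave 0.35 with Rap (adjusted p = 0.0438 by edgeR), a call lost under 17 of 20 alternatives, and 0.27 after re-addition (adjusted p = 0.103 by edgeR).

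Man1b1, the class I gene of the early secretory pathway (chromosome 2, 25332338 to 25352212, plus strand), moved least among the class I genes. It had 170.4, 178.5 and 170.3 CPM in Rap libraries, 161, 171 and 163.5 CPM in re-added libraries, 163, 183 and 168 CPM in starved libraries, and 142, 131 and 145 CPM in control libraries. Control libraries were the 3 lowest, and the other groups overlapped. It was higher than in control cells by 0.31 in Rap cells (SE 0.07, adjusted p = 0.00277 by edgeR) and by 0.24 in re-added cells (SE 0.07, adjusted p = 0.0122 by edgeR), and the starved level was 1.23 times the control level. With the other-cell marker sum as a covariate the first 2 values were 0.16 and 0.13 and did not pass, and without re-added replicate 2 the second was 0.22 and did not pass. Re-added against starved cells gave -0.05 (interval -0.20 to 0.10) and Rap against re-added cells 0.07 (interval -0.08 to 0.21), and neither passed. AA543186, on the opposite strand, overlaps the start of Man1b1 and held 801 reads over the 12 libraries, and without a stated strand setting reads in the overlap cannot be told apart.

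**Figure D2:**
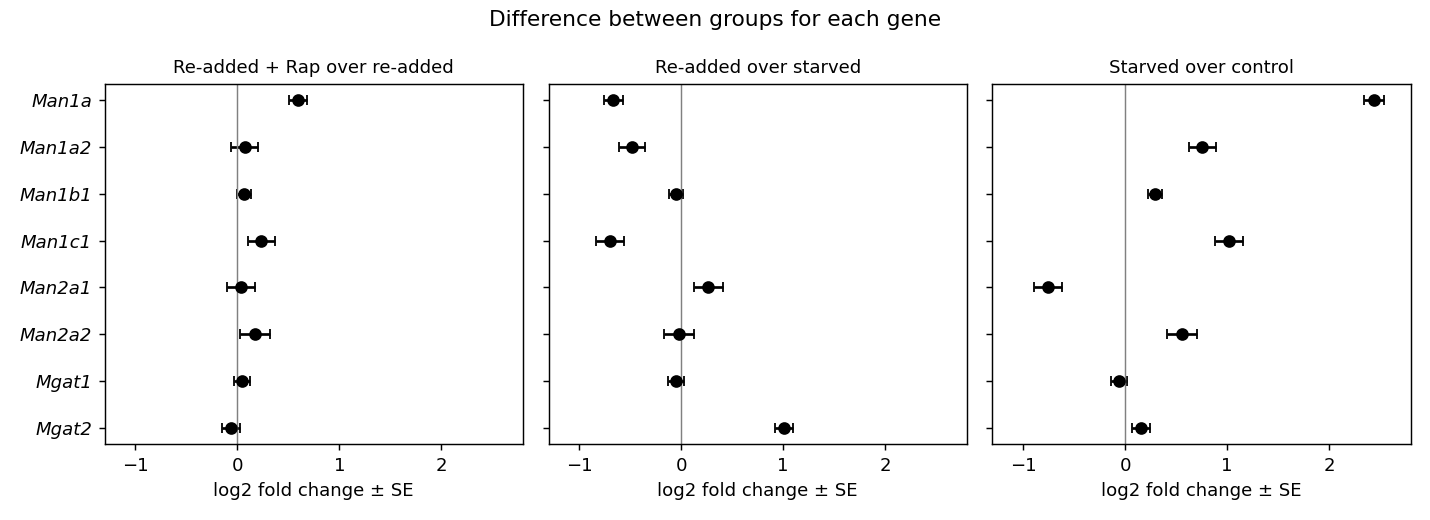
Log2 fold changes of the 8 genes for Rap over re-added, re-added over starved and starved over control cells (n = 3 libraries a group). Whiskers are the SE derived from the edgeR test. Man1a lies at 0.60, -0.67 and 2.44 in these panels and Mgat2 at -0.06, 1.01 and 0.15.

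Levels per exon length, as TPM (transcripts normalised for exon length and library size), show how the make-up of the class I group changed within a library. Man1a made up 50.6, 51.6 and 52.3% of the summed TPM of the 4 class I genes in Rap libraries, 43.9, 42.4 and 43.4% in re-added libraries, 48.7, 50.1 and 48.4% in starved libraries, and 21.2, 20.9 and 21.3% in control libraries. The share is a ratio within a library and needs no scaling between libraries. Man1b1 held the largest share in control libraries, at 46.0 ± 2.43%, against 26.7 ± 0.21% in Rap, 32.4 ± 1.05% in re-added and 24.1 ± 1.33% in starved libraries (SD, n = 3). Man1a had the largest share in every library of the other groups. The summed level of the 4 genes was 319 ± 16.6 TPM in Rap, 269.7 ± 8.40 TPM in re-added, 382 ± 8.52 TPM in starved and 151 ± 25.6 TPM in control libraries.

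**Figure D3:**
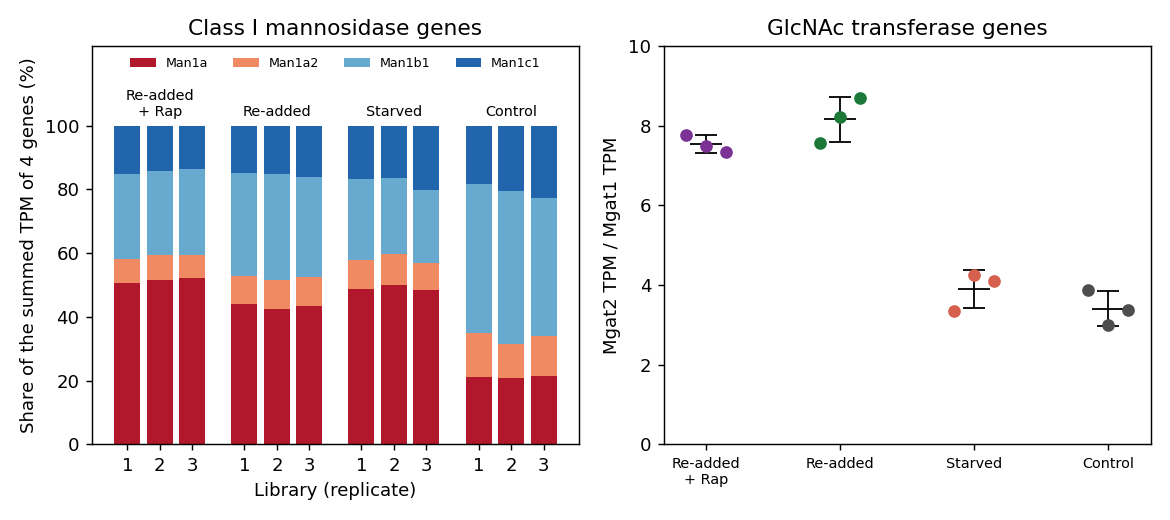
Left, share of each class I gene in the summed TPM of the 4 genes, 1 bar per library; right, the ratio of Mgat2 to Mgat1 TPM per library, with mean and SD (n = 3). The Man1a share lies near 21% in control libraries and between 42.4 and 52.3% elsewhere, and the Mgat2 to Mgat1 ratio lies between 7.33 and 8.69 in Rap and re-added libraries and between 2.99 and 4.24 in starved and control libraries.

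Mgat1, the gene of the enzyme that starts hybrid and complex glycans (chromosome 11, 49244191 to 49263030, plus strand), gave no call in any of the 5 contrasts tested. It had 58.3, 62.3 and 63.0 CPM in Rap libraries, 62.7, 58.1 and 56.7 CPM in re-added libraries, 60.1, 63.0 and 60.7 CPM in starved libraries, and 57.7, 70.4 and 63.0 CPM in control libraries. All groups overlapped. Re-added against starved cells gave -0.05 (interval -0.22 to 0.12, adjusted p = 0.626 by edgeR) and Rap against re-added cells 0.05 (interval -0.12 to 0.22, adjusted p = 0.751 by edgeR).

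Mgat2, the gene of the enzyme that commits glycans to the complex type (chromosome 12, 69184157 to 69186770, plus strand), rose when amino acids were given back, with and without Rap. It had 250.4, 258 and 255 CPM in Rap libraries, 262, 264 and 272 CPM in re-added libraries, 111, 147.5 and 138 CPM in starved libraries, and 123, 116 and 117 CPM in control libraries. The Rap and re-added libraries all lay far above the others, and the starved libraries spanned the control range. Re-added cells were 2.01-fold higher than starved cells (log2 difference 1.01, SE 0.09, adjusted p = 6.21e-06 by edgeR) and 2.24-fold higher than control cells (1.16, SE 0.09, adjusted p = 4.93e-06 by edgeR). Rap cells were 1.93-fold higher than starved cells (0.95, SE 0.09, adjusted p = 1.59e-05 by edgeR) and 2.14-fold higher than control cells (1.098, SE 0.09, adjusted p = 5.51e-06 by edgeR). Rap against re-added cells gave -0.06, with an interval of -0.26 to 0.13 (adjusted p = 0.715 by edgeR). In libraries of like marker level, with starved replicate 2 as the lone starved library, re-added cells were higher than starved cells by 0.86.

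In TPM the ratio of Mgat2 to Mgat1 was 7.77, 7.50 and 7.33 in Rap libraries, 7.57, 8.21 and 8.69 in re-added libraries, 3.35, 4.24 and 4.11 in starved libraries, and 3.87, 2.99 and 3.37 in control libraries. The ratio was thus at least 7.33 in every library that had received amino acids for 3 h and at most 4.24 in the others.

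The class II genes, whose enzymes act between MGAT1 and MGAT2, went opposite ways relative to control cells. Man2a2 (chromosome 7, 80349097 to 80371375, minus strand) had 121.5, 123 and 117 CPM in Rap libraries, 102.7, 104.5 and 113 CPM in re-added libraries, 97.1, 116 and 113 CPM in starved libraries, and 74.4, 53.8 and 92.6 CPM in control libraries. Every control library lay below every other library. It was higher than in control cells by 0.71 in Rap cells (SE 0.15, adjusted p = 0.00245 by edgeR) and by 0.54 in re-added cells (SE 0.15, adjusted p = 0.0131 by edgeR), and the starved level was 1.47 times the control level. Its end overlaps Hddc3 on the opposite strand, which held 1192 reads over the 12 libraries.

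Man2a1 (chromosome 17, 64600736 to 64755110, plus strand) had the lowest level of the 8 genes per exon length in every group. It had 21.9, 25.4 and 22.1 CPM in Rap libraries, 23.9, 22.3 and 21.5 CPM in re-added libraries, 21.8, 15.2 and 19.1 CPM in starved libraries, and 32.1, 26.6 and 36.1 CPM in control libraries. The control libraries were the 3 highest, and the starved libraries overlapped with the re-added ones. It was lower than in control cells by -0.45 in Rap cells (SE 0.14, adjusted p = 0.0164 by edgeR) and by -0.49 in re-added cells (SE 0.14, adjusted p = 0.0142 by edgeR), and the starved level was 0.593 times the control level.

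The other-cell marker sum was 1646 to 1958 CPM in control libraries and at most 666 CPM in Rap and re-added libraries. A covariate of that sum can therefore hardly be separated from the difference to control cells. With the marker sum as a covariate, Man2a1 gave -0.05 for Rap and -0.17 for re-added against control cells, Man2a2 gave 0.51 and 0.38, and none of the 4 passed. Without control replicate 3, the library with the highest Man2a1 level, Man2a1 no longer passed either (-0.34 and -0.38); it was also lost on the TPM values (-0.41 and -0.34), without Rap replicate 1 or 3 for Rap (-0.41 and -0.42) and without re-added replicate 3 for re-added cells (-0.45). The Man2a2 call in re-added cells was lost with only the 6 libraries compared (0.52). Within the starved group Man2a1 was highest in replicate 1 and lowest in replicate 2, the order of the marker sums. Within the control group replicate 2 had the highest marker sum, 1958 CPM. It had the lowest levels of Man2a1 and Man2a2 in that group, 26.6 and 53.8 CPM. With starved replicate 1 alone, the starved library whose marker sum of 1605 CPM is near the control range, the difference from control cells was -0.54 for Man2a1 and 0.40 for Man2a2.

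Between the 3 groups without control cells, no class II contrast passed. Man2a1 gave 0.27 for re-added against starved cells (interval -0.03 to 0.57, adjusted p = 0.149 by edgeR) and 0.30 for Rap against starved cells (interval -0.00097 to 0.61, adjusted p = 0.0962 by edgeR); with the marker sum as a covariate these were 0.42 and 0.54 and passed, and the second also passed in libraries of like marker level (0.60). For Man2a2 the 2 values were -0.02 and 0.15. In TPM the ratio of Man2a2 to Man2a1 was 3.66 ± 0.24 in Rap, 3.32 ± 0.34 in re-added, 4.19 ± 1.098 in starved and 1.61 ± 0.19 in control libraries (SD, n = 3).

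**Figure D4:**
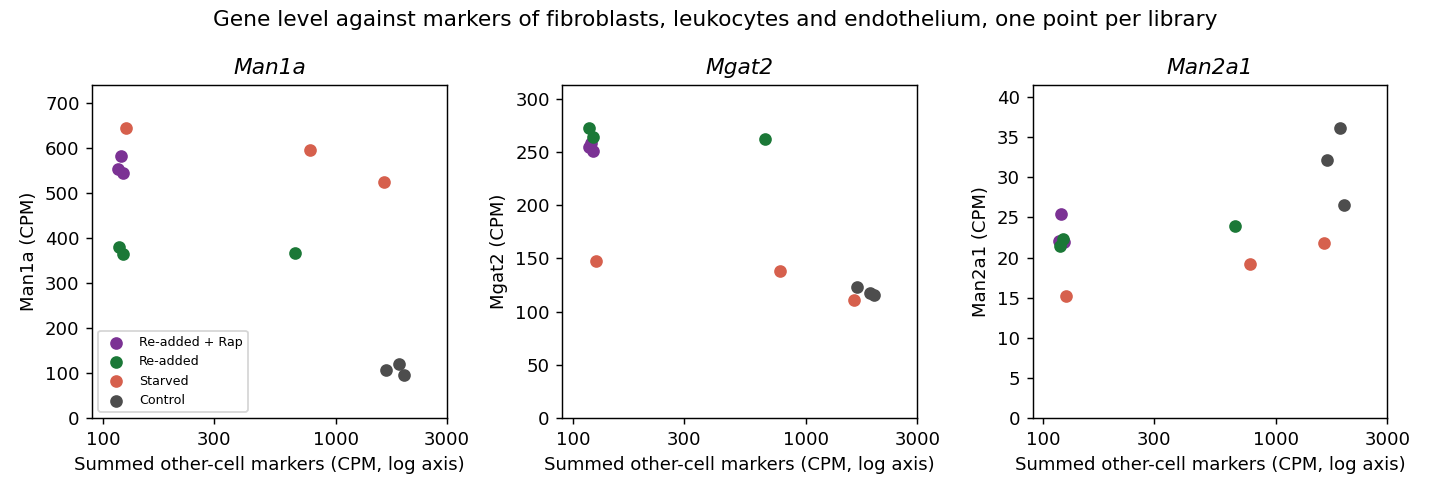
Level of Man1a, Mgat2 and Man2a1 (CPM) in each library against the summed CPM of 28 fibroblast, leukocyte and endothelium markers on a log axis, coloured by group. Control libraries lie at 1646 to 1958 CPM of markers and starved libraries at 126 to 1605 CPM; Man1a is at 524 CPM in the starved library with 1605 CPM of markers, and Man2a1 is lowest in the starved library with 126 CPM.

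The order of the 8 genes per length changed with the treatment. In control cells Mgat2 was highest at 121 ± 11.3 TPM, Man1b1 next at 69.0 ± 8.56 TPM, and Mgat1, Man1a and Man1c1 followed at 35.7 ± 2.03, 32.0 ± 5.74 and 31.2 ± 7.57 TPM, with overlapping libraries. In starved cells Man1a was first at 187 ± 5.76 TPM and Mgat2 second at 146 ± 10.6 TPM. In re-added cells Mgat2 was first at 289.8 ± 9.88 TPM and Man1a second at 117 ± 4.27 TPM, and in Rap cells they stood at 258 ± 7.04 and 164 ± 7.38 TPM. Man2a1 was last in every group, between 7.58 ± 1.86 TPM in starved and 11.7 ± 2.57 TPM in control cells. Across the 3 treated groups Man2a2 and Man1a2 were neighbours at the lower end, at 31.0 ± 1.70 and 23.7 ± 2.47 TPM in Rap, 29.5 ± 1.92 and 24.2 ± 1.06 TPM in re-added, and 30.4 ± 0.88 and 34.2 ± 1.83 TPM in starved cells, against 19.2 ± 6.28 and 18.8 ± 4.94 TPM in control cells.

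Read against all genes, these counts stand as follows. For Rap against re-added cells 1 of the 8 genes was called higher and none lower, where 4.55% of all tested genes were called higher and 3.43% lower (7.98% in either direction). The overall count for that comparison, 1344 genes, depends on the libraries in the fit, with 635 to 693 without re-added replicate 2 or 3 or any Rap replicate and 2058 without control replicate 2. Of its calls 57.0% were higher, against 29.2% on the TPM values. Man1a, chosen for its starved and control levels, is left out of the counts for all comparisons with starved or control cells but the last. For re-added against starved cells 1 of the other 7 was called higher, Mgat2, and 2 lower, Man1a2 and Man1c1, where 18.4% of genes were called higher and 18.8% lower (37.3% in either direction). The median log2 difference of the 8 was -0.05, against -0.06 over all tested genes.

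For Rap against starved cells 1 of the 7 was called higher and 2 lower, where 20.2% of genes were called higher and 23.9% lower (44.1% in either direction). For re-added against control cells 3 of the 7 were called higher and 1 lower (24.8% and 24.5% of all genes, 49.3% in either direction), and for Rap against control cells 5 and 1 (27.7% and 25.3%, 53.0% in either direction). For starved against control cells 5 of the 8 passed the threshold as higher and 1 as lower, where 24.3% of genes were higher and 14.6% lower (38.9% in either direction). The genes were proposed with the rise of Man1a in that contrast known, so nothing is read from the count. With upper-quartile scaling 44.6% of all calls in this comparison were higher, against 62.5% with TMM. The 5 are Man1a, Man1a2, Man1b1, Man1c1 and Man2a2. The 3 comparisons with control cells share the control libraries, so their counts are not independent.

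The upstream sequences of the pair of genes on which the results turn, Man1a and Mgat2, are shown for their base composition. They come from RefSeq promoter windows (250 bases before and 50 after a gene's start, GRCm38.p6), which were at hand for 6 of the 8 genes in 8 windows, and are limited to bases before the first annotated exon. Both run 5′ to 3′ on the gene's strand, with CG dinucleotides in capitals. They lie at chr10:54075797-54075987 (minus strand) and chr12:69183908-69184156 (plus strand).
Man1a: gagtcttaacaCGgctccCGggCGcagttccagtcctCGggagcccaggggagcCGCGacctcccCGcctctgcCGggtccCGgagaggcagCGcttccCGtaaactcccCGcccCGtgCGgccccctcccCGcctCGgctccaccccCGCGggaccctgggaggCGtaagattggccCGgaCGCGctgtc
Mgat2: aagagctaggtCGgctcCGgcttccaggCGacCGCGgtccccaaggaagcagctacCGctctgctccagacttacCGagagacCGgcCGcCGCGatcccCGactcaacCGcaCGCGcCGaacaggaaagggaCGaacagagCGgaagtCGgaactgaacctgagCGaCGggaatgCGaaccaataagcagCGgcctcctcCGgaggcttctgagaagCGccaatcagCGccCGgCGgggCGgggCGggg
The stretches hold 22 CG dinucleotides in 191 bases for Man1a and 30 in 249 bases for Mgat2. The full windows hold 38 and 37, and the median over 32851 promoter windows of the annotation is 7. The G and C content of these windows was 72.7% and 69.0%, against a median of 52.7%. A high number of CG dinucleotides was not particular to this pair. The windows of Man1b1, Man1c1 and Man2a1 held 33, 31 and 30, and those of Mgat1, which gave no call, held 22, 2 and 15. The windows were set by RefSeq starts. Those of Man1b1 and Man2a1, and those of Mgat1 with 2 and 15, lie inside the gene spans given above.

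The windows were searched on both strands for CACGTG, the E-box core of sites bound by TFEB-type factors, TGTTTAC, a site of FoxO factors, and TGATGNAA, the composite site of C/EBP and ATF factors. None of the 8 windows held any of the 3 strings, which occur in 7.15%, 3.65% and 3.97% of all windows of that length. This says only that these letters are not in these windows.

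The counts for other genes of N-glycan building are read against the shares of all genes given above. These were 37.3% called in either direction for re-added against starved cells and 38.9% for starved against control cells. The lists of lipid-linked precursor, oligosaccharyltransferase, glucose trimming, branching, capping and glycan breakdown genes were near the first share. The precursor and branching lists were also near the second. Most lists were short, so a few genes shift a share by much. By number of genes called, the supply of nucleotide sugars led the lists in both comparisons. By share called it led only for re-added against starved cells. For starved against control cells the lists of glucose trimming, degradation signal, mannose 6-phosphate and glycan breakdown genes had larger shares. In the nucleotide sugar list 11 of 18 genes rose and 2 fell for re-added against starved cells (median 0.49). For starved against control cells 1 of its genes rose and 9 fell (median -0.27). Gmppb, which encodes the subunit that makes GDP-mannose, rose to 104 ± 2.99 CPM in re-added cells, against 34.1 ± 2.75 CPM in starved cells. Uap1l1, a paralogue of the UDP-GlcNAc pyrophosphorylase gene, went the other way and rose to 204 ± 15.6 CPM in starved cells, against 73.1 ± 11.4 CPM in control cells. With Rap 3 of the 18 fell against re-added cells and none rose, among them the phosphomannomutase gene Pmm2, at 26.4 ± 1.19 CPM in Rap cells and 34.4 ± 1.03 CPM in re-added cells. The number called in this comparison was 1 without any 1 of re-added replicates 2 and 3 and the Rap replicates, and it was 5 by DESeq2, 6 on the TPM values and 8 with only the libraries compared.

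Genes of the lipid-linked precursor rose in 8 of 22 cases and fell in none for re-added against starved cells (median 0.15), and for starved against control cells 5 rose and 3 fell (median -0.08). The first count was 5 without re-added replicate 2 and 4 without re-added replicate 3. The second, 8 calls in all, was 3 without starved replicate 2, 4 without starved replicate 3, and 5 without control replicate 2, re-added replicate 2 or any 1 of the Rap replicates. Both counts, 8 of 22 each, were near the shares of all genes called in either direction, 37.3% and 38.9%. Alg3, a mannosyltransferase gene, rose to 40.5 ± 0.24 CPM in re-added cells, against 21.4 ± 1.05 CPM in starved cells, and the starved level was itself below the control level of 35.5 ± 3.23 CPM. With Rap 1 of the 22, the glucosyltransferase gene Alg8, fell to 18.4 ± 0.61 CPM in Rap cells, against 25.9 ± 1.26 CPM in re-added cells, a call lost without re-added replicate 3 or Rap replicate 1 or 2; the list had 3 calls there without control replicate 2 and 2 without starved replicate 2. Of 12 oligosaccharyltransferase genes 5 rose and none fell on re-addition (median 0.17), and 1 rose and 5 fell in starved against control cells (median -0.17). The count on re-addition was 3 without re-added replicate 2 or 3 and with the marker covariate. Ostc, which encodes a subunit of the complex at the translocon, stood at 325 ± 17.4 CPM in re-added cells, 177 ± 10.5 CPM in starved cells and 357 ± 47.5 CPM in control cells.

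In the endoplasmic reticulum, 4 of 8 genes of glucose trimming and the lectin cycle rose and 1 fell in starved against control cells (median 0.24), and 2 rose and 1 fell on re-addition (median 0.23). The 5 calls in starved against control cells were 3 with the marker covariate or only the libraries compared, and the 3 on re-addition were 5 by DESeq2 or without control replicate 2 and 6 with upper-quartile factors or only the libraries compared. Prkcsh, the glucosidase II β-subunit gene, rose to 501 ± 47.7 CPM in starved cells, against 353 ± 32.1 CPM in control cells, and the calreticulin gene Calr rose to 2748 ± 75.5 CPM in re-added cells, against 2023 ± 126 CPM in starved cells. Of 7 genes that read mannose trimming as a signal for degradation, 4 rose and 1 fell in starved against control cells (median 0.31) and 4 rose and none fell on re-addition (median 0.27). The count on re-addition was 2 without re-added replicate 2 or 3 and with the marker covariate, and that in starved against control cells was 3 with only the libraries compared. The lectin gene Os9 rose to 634 ± 36.5 CPM in starved cells, against 448 ± 33.1 CPM in control cells. Edem1, whose product acts on mannose of misfolded proteins, rose to 201 ± 10.8 CPM in re-added cells, against 144.5 ± 15.1 CPM in starved cells. With Rap, Erlec1 of this list passed at 111 ± 2.58 CPM in Rap cells and 89.0 ± 4.40 CPM in re-added cells, a call lost under 11 of 21 alternatives.

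Beyond MGAT2, the branching gene Mgat4a gave calls in all 3 main comparisons. It stood at 22.3 ± 0.80 CPM in Rap cells, 13.4 ± 0.48 CPM in re-added cells, 25.4 ± 1.095 CPM in starved cells and 13.9 ± 2.05 CPM in control cells. Its log2 differences were 0.74 for Rap against re-added (adjusted p = 0.00104 by edgeR), -0.93 for re-added against starved (adjusted p = 3.0e-05 by edgeR) and 0.87 for starved against control cells (adjusted p = 6.39e-05 by edgeR). Of the 5 tested branching genes 1 rose and none fell with Rap, none rose and 2 fell on re-addition, and 2 rose and none fell in starved cells. The count in starved cells was 1 without control replicate 1, starved replicate 2 or starved replicate 3 and under 4 other settings, and 4 on the TPM values. Of 11 tested capping genes 1 rose with Rap, 1 rose and 3 fell on re-addition, and 3 rose in starved cells, where 5 were called by DESeq2 or with upper-quartile factors. The galactosyltransferase gene B4galt6 rose to 127 ± 17.9 CPM in starved cells, against 67.8 ± 8.80 CPM in control cells. Another, B4galt5, fell to 43.4 ± 0.27 CPM in re-added cells, against 65.6 ± 3.57 CPM in starved cells. The sialyltransferase gene St6gal1 rose to 62.5 ± 1.86 CPM in Rap cells, against 48.7 ± 1.61 CPM in re-added cells, a call lost without any 1 of re-added replicates 2 and 3 and the Rap replicates and on the TPM values; the list had 2 calls there without control replicate 2.

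Of 5 genes of the mannose 6-phosphate tag, which sends enzymes to lysosomes, 3 rose and none fell in starved against control cells (median 0.29), and 1 rose and 2 fell on re-addition (median -0.07). The 3 calls on re-addition were 1 without re-added replicate 2, and the 3 in starved cells were 1 with only the libraries compared. The receptor gene Igf2r rose to 228 ± 21.0 CPM in starved cells, against 137 ± 35.3 CPM in control cells, and Nagpa, the gene of the uncovering enzyme, fell to 14.1 ± 0.55 CPM in re-added cells, against 19.2 ± 2.37 CPM in starved cells. Gnptab, which encodes the transferase that starts the tag, fell to 48.0 ± 1.44 CPM in Rap cells, against 66.3 ± 2.68 CPM in re-added cells, a call lost without any 1 of these 6 libraries. Of 7 genes of other mannosidases and glycan breakdown 5 rose and none fell in starved cells (median 0.41), and 2 rose and 1 fell on re-addition (median 0.08). The count in starved cells was 3 without starved replicate 2, with upper-quartile factors, with only the libraries compared and with the marker covariate. The lysosomal mannosidase gene Man2b1 rose to 276 ± 25.6 CPM in starved cells, against 172 ± 12.4 CPM in control cells, and Ngly1, which encodes a cytosolic enzyme that strips N-glycans, rose to 33.9 ± 1.22 CPM in re-added cells, against 24.5 ± 1.07 CPM in starved cells. The adjusted p-values of the pathway genes named here lay between 9.86e-08 and 0.0451 by edgeR.

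In libraries of like other-cell marker level, with 1 starved library in each comparison, most list counts were lower. The nucleotide sugar list had 7 calls for starved against control cells, where it had 10 before, and 9 for re-added against starved cells, where it had 13. In the same order of comparisons, the precursor list had 2 and 2 calls, against 8 and 8, the oligosaccharyltransferase list 4 and 2, against 6 and 5, and the glucose trimming list 2 and 2, against 5 and 3. The degradation signal list had 2 and 1, against 5 and 4, the branching list 1 and 2, against 2 and 2, and the capping list 1 and 2, against 3 and 4. The mannose 6-phosphate list had 0 and 0, against 3 and 3, and the list of other mannosidases and breakdown 1 and 1, against 5 and 3. All 12 libraries stayed in these fits, but fewer were set against each other in a comparison. Whether the markers' source bears on the counts was not tested.

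**Figure D5:**
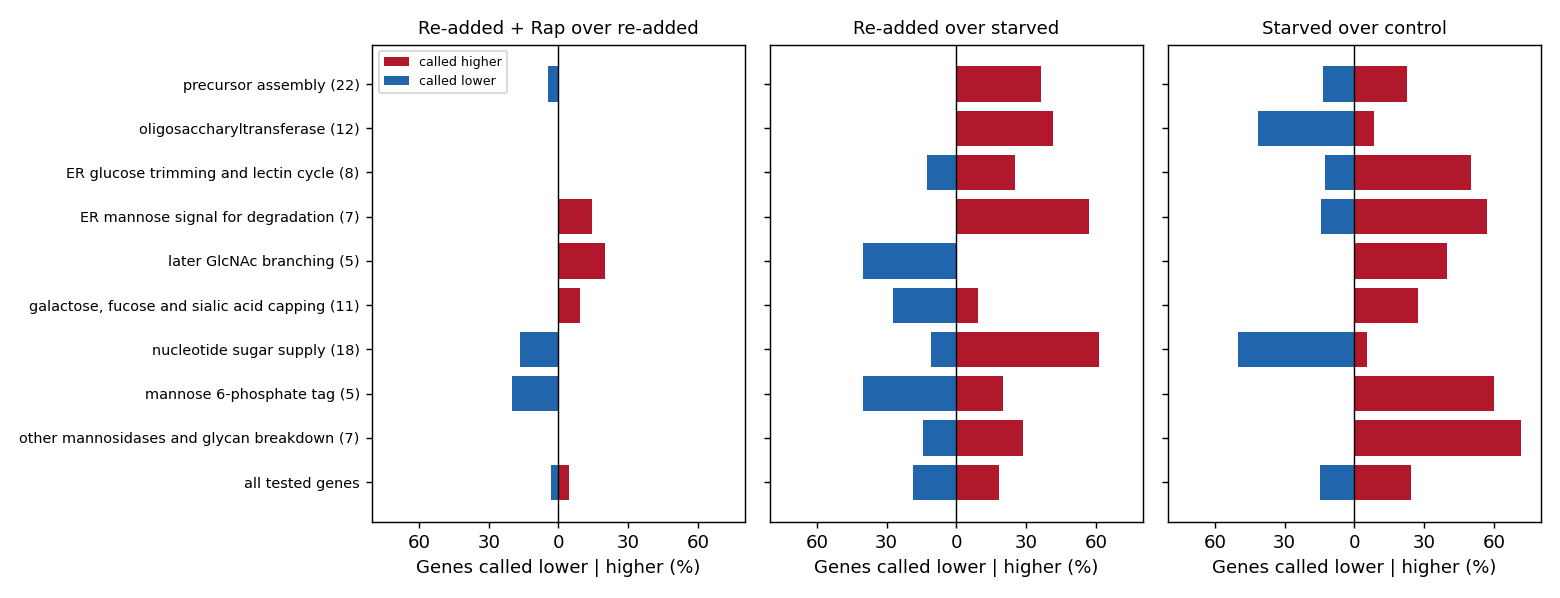
Share of tested genes called higher (right, red) or lower (left, blue) in each list, with the number tested in brackets, and over all tested genes at the foot. The nucleotide sugar list has 11 of 18 genes higher for re-added over starved cells and 9 of 18 lower for starved over control cells, and few genes of any list were called for Rap over re-added cells.

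Genes with the most similar pattern were ranked by Pearson's r of log2 CPM over the 12 libraries, among 11008 genes with a mean of at least 5 CPM. The 12 points share their group differences, so r is given as a description. For Man1a they were Ern1, Cpn1 and Dner (r = 0.99 each, against a median of 0.24 over all genes considered), and for Mgat2 Dgat1, Riok1 and Hexim1 (r = 0.99 each, median 0.14). They were Tlk1, Stard13 and Foxj3 for Man1a2 (r = 0.99 each), Pogz, Btbd11 and Prps2 for Man1b1 (r = 0.98 each), Mast3, Smpd3 and Mef2d for Man1c1 (r = 0.98 each), and Pcdhga6, Pappa2 and Fbxo18 for Man2a2 (r = 0.98 to 0.99). Likeness was weaker for Man2a1, with Kbtbd11, Gng2 and Cilp (r = 0.91 to 0.94), and for Mgat1, with Nrgn, Tpgs1 and Mrpl27 (r = 0.83 to 0.88). Among the 8 themselves, r was 0.94 between Man1a and Man1b1, 0.82 between Man1a and Man1c1, 0.51 between Man1a and Mgat2 and -0.80 between Man1a and Man2a1.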

How the data were processed

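Per the file headers, the authors deposited raw read counts per Ensembl gene, 1 table per library, and a table of TPM values with gene names, which equal counts per exon length rescaled to a common total within 5e-05. The submitters' processing notes name GRCm38.p6 as build and list Subread 2.0.1 and limma 3.46.0 without their role. How reads were aligned, with which strand setting and annotation release, is not given in the sources used here. The present tests ran under R 4.3.3, the main one in edgeR 4.0.16. The filter on low values was filterByExpr (minimum count 10, minimum total 15), libraries were scaled by TMM, and a single quasi-likelihood model of all 12 libraries (4 means, 8 residual degrees of freedom) gave each contrast, with Benjamini-Hochberg adjustment over all 16844 genes and a threshold of 0.05. Each SE was derived from the F test, as the absolute log2 difference over the square root of F. The 95% intervals were built from that SE. CPM use TMM-scaled library sizes, those of markers raw totals. The routines were tested on simulated counts with less spread and far fewer changed genes than here. That test therefore does not cover the conditions of these data.

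The 8 genes, the 9 pathway lists, the markers, the motifs and the alternatives were chosen with earlier results of these data known. The p-values do not allow for that choice. Named pathway genes are those with the smallest adjusted p among called genes of each list in each main comparison, and similar genes are the 3 with the highest r. Alternatives used DESeq2 1.42.0 and limma 3.58.1 (log2(TPM + 1)), other scalings, no filter, the replicate number as a block, only the libraries compared, the marker sum as a covariate, libraries of like marker level, and leaving out each library. Replicate numbers in the labels did not pair the libraries across the 4 groups, although starved and re-added replicates 1 and 2 deviated alike.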

Additional observations from a re-analysis of the deposited data

How the results depend on the processing

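Of 992 member values recomputed under the alternatives, 913 kept their direction and side of the threshold, 44 lost and 10 gained a call, and 25 changed sign, all of them values that passed the test neither before nor after. Man1a in Rap against re-added cells stayed called in all alternatives (0.49 to 0.60 across other settings and 0.57 to 0.62 with a library left out), and so did Mgat2 in re-added against starved cells (0.94 to 1.08 with a library left out).

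The count of genes called for starved against control cells was 6559, and 4199 with only the 6 libraries compared and 3463 in libraries of like marker level, which hold 1 starved library assumed to vary like the other groups. For re-added against starved cells it was 3711 in like libraries against 6275. For Rap against re-added cells it was 1344, with 2287 by DESeq2, 3959 with only the libraries compared (where 2 members were called instead of 1), and 635 to 2058 with a library left out: 2058 without control replicate 2, 665 and 635 without re-added replicate 2 or 3, and 693, 665 and 687 without Rap replicate 1, 2 or 3. For Rap against starved cells it was 7424, with 3806 in like libraries and 4940 to 8290 with a library left out, the lowest without Rap replicate 3, where 1 member was called instead of 3 (range 1 to 3). For re-added against control cells it was 8304, with 2730 and 2 members instead of 5, Man1a counted among them here, under the marker covariate, and 5208 to 8838 with a library left out, the lowest without re-added replicate 3. For Rap against control cells the covariate gave 2038 genes and 2 members, against 8927 and 7, again with Man1a. The cause of these changes was not tested.

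Upper-quartile scaling moved the median of all genes for starved against control cells to -0.13, against 0.01 with TMM, and the share of calls that were higher to 44.6%, against 62.5%; the directions of the 6 called members held. On the TPM values that median was 0.11, it was 0.11 for re-added against control cells and -0.12 for Rap against starved cells. Values that changed sign were, by setting, as follows. With upper-quartile factors they were 0.011, 0.039 and 0.0082 for Man1b1, Man2a2 and Mgat1 in re-added against starved cells, and 0.050 for Mgat1 in Rap against starved cells. On the TPM values they were -0.031, -0.037, -0.063 and -0.052 for Man1a2, Man1b1, Man2a1 and Mgat1 in Rap against re-added cells, -0.11 for Man1b1 in Rap against starved cells, and 0.071 for Mgat1 in starved against control cells. In like libraries they were -0.094 for Mgat2 in starved against control cells and -0.078 for Man1b1 in Rap against starved cells. The marker covariate gave -0.063 for Man1b1 and 0.019 for Mgat1 in Rap against starved cells, no filter gave -0.0028 for Man1b1 there, and only the libraries compared gave 0.0034 for Man2a2 in re-added against starved cells. With a library left out, Man2a2 in re-added against starved cells reached from -0.067 to 0.037 (0.0073, 0.037 and 0.016 without starved replicate 2 or 3 or re-added replicate 1). Man2a1 in Rap against re-added cells reached from -0.036 to 0.073 (-0.036 without Rap replicate 2), Man1b1 in Rap against starved cells from -0.0057 to 0.029, Mgat1 there from -0.029 to 0.032 (0.00024 and 0.032 without starved replicate 1 or Rap replicate 1), and Mgat1 from -0.12 to 0.025 in starved and from -0.12 to 0.021 in Rap against control cells (0.025 and 0.021 without control replicate 2).

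Libraries with the same replicate number did not deviate together across the 4 groups. The correlation of their deviations ran from -0.33 to 0.81, and in 6 of 36 comparisons a library matched its own number best. The highest values, 0.81 and 0.67, were those between starved and re-added cells for replicates 1 and 2. Replicate 3 of these groups gave -0.33. With the replicate block 6512, 5970 and 1067 genes were called in the 3 main comparisons. It changed 2 member calls: Man1c1 in re-added against control cells passed (0.33) and Man1a2 in Rap against control cells did not (0.35). It moved no count of calls among all genes, members or pathway lists by over 1.5 times. The lowest member count was 285 reads, for Man2a1 in starved replicate 2. How much of the replicate spread was counting error was not tested.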
